A study of Xenopus laevis with 6 samples.

Results

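Sox17 and Gata4, Gata5 and Gata6 are transcription factors of the endoderm, the germ layer that forms the gut and its organs. Their RNA was followed in Xenopus laevis embryos around the onset of zygotic transcription, with and without protein synthesis. It was captured by a label of newly made RNA, and carry-over of unlabelled RNA was not tested. The genes were chosen by name, as every row of the deposited table whose gene name starts with sox17a., sox17b., gata4., gata5. or gata6. The rule found 10 rows of 50489, namely the L and the S copy of sox17a, sox17b.1, gata4, gata5 and gata6. Xenopus laevis is an allotetraploid frog, and L and S name the copies that a gene has on its long and short subgenomes. All embryos were wild type, were labelled as blastulae, and carried 5-ethynyl uridine (EU), which cells incorporate into RNA as they make it in place of uridine. EU was injected at the 1-cell stage (10 nl of 50 mM, about 0.5 mM in the embryo), and labelled RNA was later biotinylated and captured on streptavidin beads. The 3 groups, of 2 libraries each, were embryos exposed to cycloheximide (CHX), which blocks translation, at 0.2 mg/ml from 5 hours post fertilization (hpf) until collection at 7.5 hpf, untreated embryos at 7.5 hpf and untreated embryos at 5 hpf. All libraries carry the same batch label, and the design text puts the replicates in 1 clutch, so p-values measure the spread between these samples only, and how many embryos made up a library is not stated in the labels.

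In the frog, endoderm arises from the yolky vegetal cells of the blastula. There the maternal T-box factor VegT switches on genes for nodal ligands, which are secreted signals of the TGF-beta family, and for homeobox factors of the Mix and Bix group. Nodal signalling then acts through Smad2 and its DNA-binding partner Foxh1. Sox17 proteins carry an HMG box that binds DNA and belong to the SoxF group. Gata4, Gata5 and Gata6 carry a pair of GATA-type zinc fingers, and serve in endoderm and later in heart and gut. Blocking translation separates transcripts that can be made with proteins already present from those that need a newly made protein. In RefSeq's Xenopus laevis v10.1 annotation sox17a and sox17b.1 are direct neighbours on both subgenomes, and each of the 10 names matched 1 protein-coding gene.

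The values are gene-level read numbers scaled by the authors with a size factor for each library and then rounded, so they compare a gene across libraries but not genes with each other. Library totals lay between 6680033 and 7742693. The spacing between low values put the worth of a single read at about 1.85 and 2.31 units at 5 hpf and between 0.446 and 1.18 at 7.5 hpf. A listed value of 0 at 5 hpf therefore allowed up to 5.54 and 6.93 units (3 reads, counting error only). Tests were run with limma on log2(value + 1) over 19149 genes with a mean value of at least 11.9, with Benjamini-Hochberg adjustment, and a gene was called at an adjusted p under 0.05. Fold changes on this scale understate changes of low genes. Of the 10 rows, 9 passed the filter, and gata5.S, with a mean of 11.3, lay just under it.

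The comparison of untreated embryos at 7.5 and 5 hpf asks which of the genes came on over this interval. RNA of all 4 sox17 copies rose steeply and was already detected at 5 hpf. Both gata4 copies and gata6.S also rose, from a listed 0, while gata6.L and gata5.L did not pass the test. Of the 9 rows tested, 7 were called higher and 0 lower, against 5.9% of all genes tested called higher and 0.715% called lower. In the same 7 rows both 7.5 hpf values stood above both 5 hpf values, and in 0 rows below them, against 25.6% and 20.5% of all genes tested. The gata4 and gata6 rows were listed at 0 in both 5 hpf libraries, so they could not fall below them. The filter mean also includes the CHX libraries, where the gata rows had their highest group mean. The gata part of these counts is therefore favoured by the floor and the filter. The plot of values by library shows all 10 rows.

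**Figure D1:**
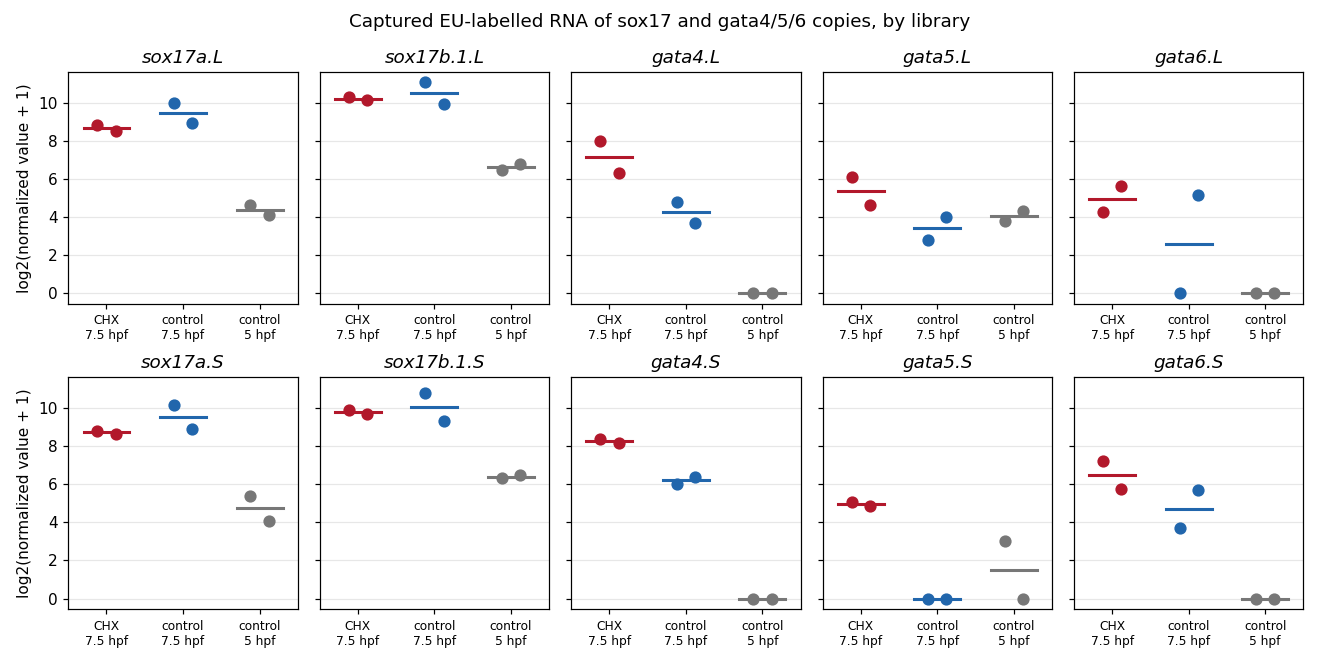
Normalized value of each gene copy on a log2(value + 1) scale, by library; points are the 2 libraries of a group and bars their mean. The 4 sox17 copies stand high in both 7.5 hpf groups, and the gata copies stand highest in CHX embryos, although gata6.L and gata6.S of control 7.5 hpf replicate 2 come close to or pass a CHX library.

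Among the sox17 copies, those of sox17a had the larger log2 fold changes. sox17a.L had values of 1022 and 489 in control embryos at 7.5 hpf, against 24 and 16 at 5 hpf, a 34.3-fold difference (log2 fold change 5.10 ± 0.38, SE; limma adjusted p = 2.3e-05). sox17a.S had 1129 and 470 at 7.5 hpf, against 41 and 16 at 5 hpf (log2 fold change 4.77 ± 0.47, adjusted p = 0.00015). In both copies the groups stood far apart, and the value of replicate 1 at 7.5 hpf was well above that of replicate 2.

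The sox17b.1 copies, which encode the beta form of Sox17, rose as well. sox17b.1.L had 2148 and 981 at 7.5 hpf, against 87 and 109 at 5 hpf, a 14.8-fold difference (log2 fold change 3.88 ± 0.31, adjusted p = 3.2e-05). sox17b.1.S had 1742 and 637 at 7.5 hpf, against 79 and 88 at 5 hpf (3.64 ± 0.37, adjusted p = 0.00018). These 4 calls held in all 17 alternative fits. Summed over the 4 copies, which does not depend on how reads were divided among them, sox17 RNA stood at 6041 and 2577 at 7.5 hpf and at 231 and 229 at 5 hpf. Embryos were sampled whole, so more cells with a transcript and more RNA per cell cannot be told apart.

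Gata4, a zinc-finger factor of endoderm and heart, was listed at 0 for both copies in both 5 hpf libraries, so no fold change is given. gata4.S had 64 and 82 at 7.5 hpf (adjusted p = 0.00035) and gata4.L had 27 and 12 (adjusted p = 0.038). The lower of these values, 12 in replicate 2, stood for an estimated 19 reads. The gata4.S call held in all 17 alternative fits, with adjusted p from 0.00019 to 0.027. That of gata4.L was lost in 9 of 17, with adjusted p up to 0.16. It was lost on leaving out any library other than control 7.5 hpf replicate 2. Summed over L and S, gata4 RNA stood at 91 and 94 at 7.5 hpf, so the copies differed between the replicates more than their sum did.

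Gata6 RNA was likewise listed at 0 in every 5 hpf library, and was uneven between replicates afterwards. gata6.S had 12 and 51 at 7.5 hpf (adjusted p = 0.032), and gata6.L had 0 and 35, which was not called (adjusted p = 0.48). Without control 7.5 hpf replicate 2 the adjusted p of gata6.S was 0.077, and it lay between 0.083 and 0.099 without either CHX library or either 5 hpf library. Over its 16 alternative fits it ranged from 0.02 to 0.11. When the L and S copies were summed over the whole table, a choice made after seeing the data, gata6 was called (12 and 86 at 7.5 hpf, adjusted p = 0.02).

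Gata5, which in frogs acts early in endoderm alongside Gata4 and Gata6, had low values at both times. gata5.L had 6 and 15 at 7.5 hpf, against 13 and 19 at 5 hpf, and the groups overlapped (log2 fold change -0.66 ± 0.93, adjusted p = 0.75). Its 95% interval ran from -2.73 to 1.41, so neither a rise nor a fall of over 2-fold is excluded at this depth, where the 5 hpf values stood for an estimated 7 and 8 reads. gata5.S was at 0 in either control library of 7.5 hpf, against 7 and 0 at 5 hpf.

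CHX embryos and control embryos of the same age were then compared to ask which transcripts changed when translation was blocked. The sox17 copies lay at or somewhat below the control level and the gata copies lay above it, but none of the 9 rows passed the test. With limma 0 were called in either direction, against 0.198% of all genes tested called higher and 0.355% called lower, and gata4.L and gata4.S alone had an unadjusted p under 0.05 (0.019 and 0.015). Over all genes 38 were called higher and 68 lower, and 1576 had an unadjusted p under 0.05. By position, 4 of the 5 tested gata rows had both CHX values above both control values, against 19.6% of all genes tested. The mean used by the filter includes the CHX libraries, and the tested gata rows had their highest group mean there. Low rows that are high under CHX passed more readily, so the filter itself favours this count. Both sox17a copies had both CHX values below both controls, against 18.1% of all genes.

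**Figure D2:**
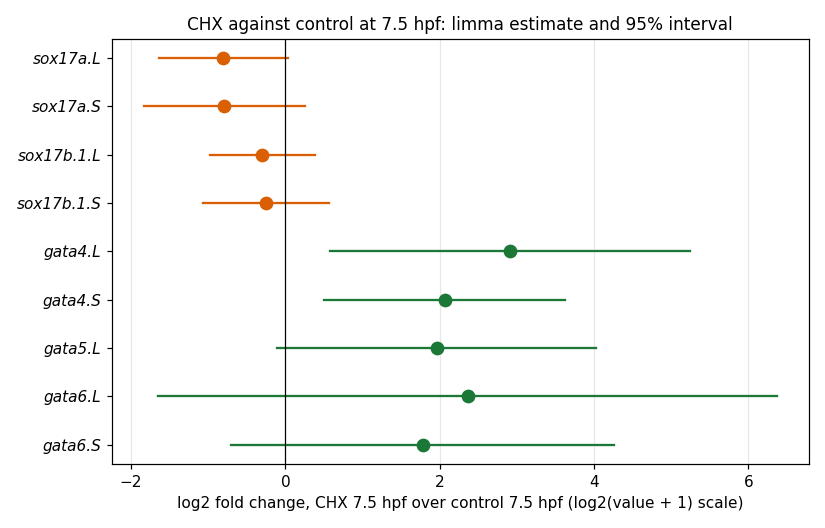
Log2 fold change of CHX over control embryos at 7.5 hpf for the 9 rows tested; points are limma estimates and lines their 95% intervals. The 4 sox17 estimates lie between -0.80 and -0.25 and the 5 gata estimates between 1.78 and 2.91; only the intervals of gata4.L and gata4.S leave out 0, before adjustment.

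For the sox17a copies, CHX values were near the lower of the controls. sox17a.L had 449 and 365 in CHX embryos, against 1022 and 489 in control embryos of 7.5 hpf (log2 fold change -0.80 ± 0.38, 95% interval -1.64 to 0.03, adjusted p = 0.62). sox17a.S had 448 and 394 in CHX embryos, against 1129 and 470 in controls (-0.79 ± 0.47, interval -1.84 to 0.25, adjusted p = 0.69). In both copies control replicate 2 lay just above the higher CHX library, and control replicate 1 lay far above it.

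The sox17b.1 copies overlapped between the groups. sox17b.1.L had 1247 and 1115 under CHX, against 2148 and 981 in controls (-0.30 ± 0.31, interval -0.98 to 0.38, adjusted p = 0.82). sox17b.1.S had 957 and 815, against 1742 and 637 (-0.25 ± 0.37, interval -1.07 to 0.57, adjusted p = 0.89). Without control 7.5 hpf replicate 1 the sign of both estimates turned, to 0.27 and 0.47. Over all 4 copies the CHX mean was 67.2% of the control mean (2895 ± 291 and 4309 ± 2449; SD, n = 2 each). That share rests on which control is used, being 112% without control replicate 1 and 47.9% without control replicate 2.

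Gata4 RNA stood at several times the control level under CHX, although neither copy passed the test over all genes. gata4.S had 330 and 284 in CHX embryos, against 64 and 82 in controls, a 4.18-fold difference (log2 fold change 2.06 ± 0.70, interval 0.50 to 3.63, adjusted p = 0.43). gata4.L had 256 and 79, against 27 and 12 (2.91 ± 1.05, interval 0.57 to 5.25, adjusted p = 0.48). All CHX values of either copy stood above all of its controls. In a fit to these 2 groups alone gata4.S was called (adjusted p = 0.042), while over all its alternative fits the adjusted p ranged from 0.042 to 0.99. With L and S summed, gata4 stood at 586 and 363 against 91 and 94, a 4.94-fold difference (adjusted p = 0.25).

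Gata5 and gata6 leaned the same way on fewer reads. gata5.L had 67 and 24 under CHX, against 6 and 15 in controls (1.96 ± 0.93, adjusted p = 0.63), without overlap. gata5.S, left out of the test by the filter, had 33 and 28 against 0 and 0, and the CHX values stood for an estimated 48 and 63 reads. Summed over both copies, gata5 had 100 and 52 against 6 and 15 (2.79 ± 0.81, adjusted p = 0.29).

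The gata6 copies had the largest standard errors of the 9 rows in this comparison. gata6.S had 147 and 53 under CHX, against 12 and 51 in controls (1.78 ± 1.12, adjusted p = 0.71), and the lower CHX library only just cleared the higher control. gata6.L had 18 and 49, against 0 and 35, so its groups overlapped (2.36 ± 1.81, adjusted p = 0.76), and its estimate turned to -0.22 without control 7.5 hpf replicate 1.

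The contrast between the families can be read within each library, where a scaling factor cancels. The summed gata4, gata5 and gata6 value was 27.4% and 19.2% of the summed sox17 value in CHX embryos, 1.80% and 7.57% in controls at 7.5 hpf and 8.66% and 8.30% at 5 hpf. The CHX libraries stood above both controls of 7.5 hpf. The 5 hpf ratios rest on gata5 alone, on an estimated 11 and 8 reads, with gata4 and gata6 listed at 0. No order of the 5 hpf libraries and either 7.5 hpf group is therefore read from them. An exact permutation test of the log2 ratio was not among the planned tests. It gave a two-sided p of 0.333 for CHX against control at 7.5 hpf. That is the smallest p that 2 libraries against 2 allow, and any full separation gives it, so the test cannot decide. Control replicate 1 had the higher sox17 values but the lower gata4.S, gata5.L, gata6.L and gata6.S values of its group, while its gata4.L value was the higher, as for sox17.

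Markers of other parts of the embryo were read in the same comparison of CHX and control embryos at 7.5 hpf. The summed value of 10 ectoderm marker rows was 4453 to 6135 in CHX embryos, against 1070 to 3279 in controls at 7.5 hpf. That of 7 neural rows was 5206 to 7234, against 1127 to 3279. Of 7 tested rows in either list, 1 ectoderm row (foxi1.S) and 2 neural rows (neurog1.L and otx2.S) were called higher, against 0.198% of all genes tested. Low rows that are high under CHX passed the filter more readily, which favours these counts. CHX and control values overlapped for grhl3.S, foxi1.L, tfap2a.L and zic1.S. Sums of mesoderm rows overlapped, at 1477 to 2640 in CHX embryos and 1595 to 2724 in controls, and 0 of 7 tested rows were called. Single rows lay on either side, with both CHX values below both controls for tbxt.S and wnt8a.S and above them for mespb.L. Maternal store rows summed to 9239 to 9256 in CHX embryos and 9202 to 9309 in controls. At 5 hpf they summed to 10818 to 11233. Whether unlabelled maternal RNA was captured too, and had a part in the low 5 hpf values of sox17 and gata5, was not tested. Germ cell rows summed to 1395 to 1523 in CHX embryos and 1535 to 1848 in controls. Of 13 blood and heart rows 6 were above 0 anywhere, with sums of 68 to 104 in CHX embryos and 13 to 32 in controls, and the heart factor gene nkx2-5 was at 0 in all libraries. The part of any of these tissues in the gata values was not tested.

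CHX embryos at 7.5 hpf were also set against untreated embryos at 5 hpf, to ask which of the genes came on after 5 hpf while translation was blocked. This comparison shares its libraries with the others, so its results are not independent of them. Of the 9 rows tested 7 were called higher and 0 lower, against 5.75% of all genes tested called higher and 0.256% called lower. All 9 rows had both CHX values above both 5 hpf values and 0 had them below, against 26.7% and 21.3% of all genes tested. The 7 called rows were the 4 sox17 copies, both gata4 copies and gata6.S. The median log2 fold change over the 9 rows was 4.30, against 0.02 over all genes tested. Low gata rows passed the filter more readily where their CHX values were high. The gata4 and gata6 rows were listed at 0 in both 5 hpf libraries, so they could not lie below them. For these rows the added 1 also weighs on the size of the fold changes. The gata part of these counts and of the median is therefore shaped by the floor and favoured by the filter.

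Among the sox17 copies the log2 fold change over 5 hpf was 4.30 ± 0.38 for sox17a.L (adjusted p = 7.0e-05) and 3.98 ± 0.47 for sox17a.S (adjusted p = 0.00044). It was 3.58 ± 0.31 for sox17b.1.L (adjusted p = 6.4e-05) and 3.39 ± 0.37 for sox17b.1.S (adjusted p = 0.00027). Without CHX replicate 1, which leaves that group with a lone library and whose spread is then taken to be that of the other groups, these log2 fold changes lay between 3.27 and 4.15 and the adjusted p between 0.051 and 0.096. Without CHX replicate 2 the adjusted p of sox17a.S was 0.062.

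gata4.S and gata4.L, both from a listed 0 at 5 hpf, were called with adjusted p = 6.3e-05 and 0.0019, and gata6.S with adjusted p = 0.0053. Without CHX replicate 1, gata4.S was the single row still called (adjusted p = 0.046), with gata4.L at 0.12 and gata6.S at 0.18. Without CHX replicate 2 gata6.S had an adjusted p of 0.073. gata6.L was not called (adjusted p = 0.18). It was called without control 7.5 hpf replicate 1 (adjusted p = 0.021), without replicate 2 of that group (0.033), in a fit to the 2 groups alone (0.022) and with the copies summed (0.0034). gata5.L was the lowest of the tested rows (a 2.46-fold difference, 95% interval -0.77 to 3.37 on the log2 scale, adjusted p = 0.60).

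For each gene the order of the groups follows from these values. For sox17a and sox17b.1 control 7.5 hpf had the highest mean and 5 hpf the lowest, and the upper neighbours, control and CHX at 7.5 hpf, were not separated by the test. For gata4 and gata6 CHX was highest and 5 hpf lowest, and CHX and control at 7.5 hpf again were not separated by the test. For gata6.L no groups were separated (limma adjusted p from 0.18 to 0.76). For gata5.L CHX was highest and the 7.5 hpf control lowest, and no neighbours were separated.

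The L and S copies of each gene were compared within libraries, since a copy-specific response would change their ratio. For sox17 the share of the L copy was similar in the 7.5 hpf groups. L made up 50.1% and 48.1% of sox17a in CHX embryos, 47.5% and 51.0% in controls at 7.5 hpf and 36.9% and 50.0% at 5 hpf. For sox17b.1 the L share was 56.6% and 57.8%, 55.2% and 60.6%, and 52.4% and 55.3% in the same order of groups. For gata4 it was 43.7% and 21.8% in CHX embryos and 29.7% and 12.8% in controls at 7.5 hpf, so replicates differed as much as groups did. The gata6 share ran from 0% to 40.7% in controls at 7.5 hpf and was 10.9% and 48.0% under CHX.

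In a limma fit of log2 L over S across 4747 pairs of copies, none of the 4 pairs that could be tested was called in any of the comparisons. The shares called over all pairs were 0.59% for 7.5 against 5 hpf in controls, 0% for CHX against control at 7.5 hpf and 0.506% for CHX against 5 hpf. At 7.5 hpf the change of the ratio under CHX was -0.01 ± 0.32 for sox17a and -0.05 ± 0.24 for sox17b.1, with the wider 0.85 ± 0.68 for gata4 and 0.58 ± 1.35 for gata6 (adjusted p from 0.90 to 1.00). Only the gata4 ratio at 7.5 against 5 hpf had an unadjusted p under 0.05 (0.035). Both copies of gata4 and of gata6 were at 0 at 5 hpf, where the added 1 alone sets the ratio. Comparisons with 5 hpf therefore cannot show a changed ratio for these pairs. L and S copies, and sox17a and sox17b.1, are close in sequence, and how reads that fit several copies were divided is not stated in the labels.

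**Figure D3:**
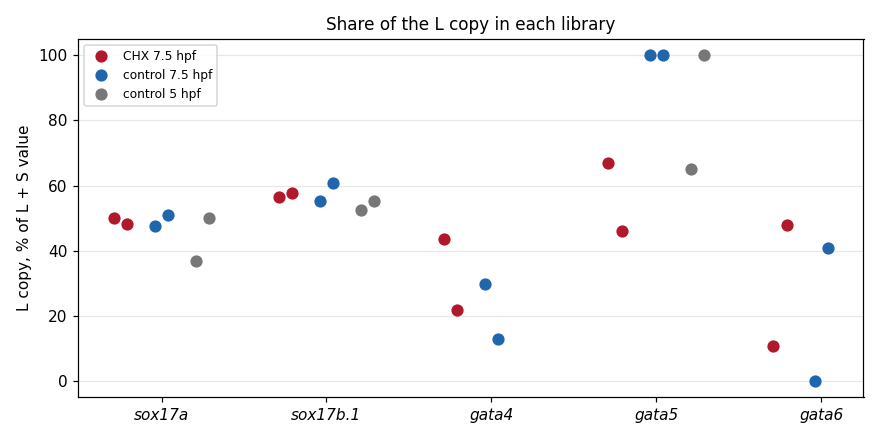
Value of the L copy as a percentage of L plus S in each library, for the 5 genes; libraries in which both copies are at 0 have no point. The sox17 points lie between 36.9% and 60.6%, while those of gata4, gata5 and gata6 scatter between replicates.

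The closest relatives of these genes were read in the same libraries. gata2 and gata3, factors of ventral ectoderm and blood, had higher CHX than control values for all 4 copies. gata2.L had 250 and 285 in CHX embryos, 16 and 27 in controls at 7.5 hpf and 24 and 0 at 5 hpf. gata2.S had 363 and 184 in CHX embryos, 38 and 6 in controls at 7.5 hpf and 2 and 5 at 5 hpf. Against the 7.5 hpf controls the 4 copies had log2 fold changes between 3.62 and 5.10, and none was called (adjusted p from 0.17 to 0.43). The gata3 copies, with control values of 0 and 8 for L and 0 and 4 for S, were near the floor there. The added 1 therefore weighs on the size of their fold changes. Against 5 hpf all 4 copies were called higher (adjusted p from 0.0033 to 0.033), against 5.75% of all genes tested. Their highest values were under CHX, and low rows that are high there passed the filter more readily. The filter itself therefore favours this count. gata1, the factor of red blood cells, reached at most 16 in any library.

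Of the other SoxF genes, sox7.L, which in frogs is supplied maternally, had 1027 and 1001 in CHX embryos, 732 and 908 in controls at 7.5 hpf and 991 and 1040 at 5 hpf, and was called in none of the comparisons. sox18.S had 14 and 27 in CHX embryos and 0 in the 4 other libraries, and sox18.L was at 0 throughout. Among genes of known Gata cofactors (zfpm1, zfpm2 and ldb1 rows), 0 of 4 tested were called in any comparison. Over all genes tested 5.9%, 0.198% and 5.75% were called higher in controls over time, CHX against control and CHX against 5 hpf. So few rows therefore cannot set the cofactors apart from other genes.

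The pathway upstream of Sox17 and Gata was then set beside them, in the order of its steps and with both copies of each listed gene. Of 7 tested rows listed as maternal inducers 3 were called higher at 7.5 than at 5 hpf in controls, against 5.9% of all genes tested. In CHX against control at 7.5 hpf 0 were called, against 0.198% of all genes called higher and 0.355% lower. The rows that rose in controls were gdf3.S, a TGF-beta family ligand gene (log2 fold change 4.50 ± 0.58), and both copies of vegt. gdf3.S had only 15 and 16 at 5 hpf, against 649 and 213 in controls at 7.5 hpf. Whether it is maternal was not tested. vegt.L had 1110 and 1051 in CHX embryos, 1604 and 1447 in controls at 7.5 hpf and 913 and 895 at 5 hpf.

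Of 10 tested nodal ligand rows 6 were called higher at 7.5 than at 5 hpf in controls, against 5.9% of all genes tested. Rows listed at 0 at 5 hpf, such as nodal.L, nodal1.L and nodal2.L, could not fall. The list median for CHX against control at 7.5 hpf was -0.88 with 0 called, against a median of 0.02 over all genes tested. The called rows with the smallest adjusted p were nodal3.2.L, nodal2.L and nodal.L in controls (log2 fold change 3.43 ± 0.52 for nodal3.2.L, adjusted p = 0.0022). nodal1.L had 99 and 39 in CHX embryos, 62 and 30 in controls at 7.5 hpf and 0 at 5 hpf, without separation of the 7.5 hpf groups. Of 9 tested nodal receptor and co-receptor rows 0 were called in any comparison, beside 0.198% to 5.9% of all genes called higher. The summed value of all 13 rows on that list was 4029 to 4557 in every library.

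Among 15 rows of signal transducers foxh1.2.L and smad4.1.L rose and smad4.1.S fell in controls. Over all genes tested 5.9% were called higher and 0.715% lower in that comparison. In CHX against control at 7.5 hpf 0 of the 15 were called, against 0.198% of all genes called higher and 0.355% lower. foxh1.2.L had 1722 and 1285 in CHX embryos, 3632 and 1622 in controls at 7.5 hpf and 30 and 42 at 5 hpf, a profile like that of sox17 in its order of groups. Of 11 nodal antagonist rows 4 rose and 1 fell in controls, beside the same 5.9% and 0.715% of all genes. In CHX against control at 7.5 hpf 0 of the 11 were called. lefty.L, which encodes a secreted inhibitor of nodal ligands, had 485 and 316 in CHX embryos, 455 and 168 in controls at 7.5 hpf and 0 at 5 hpf. It was called against 5 hpf in controls and under CHX (adjusted p = 3.2e-05 and 2.5e-05).

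Homeobox genes of the Mix and Bix group rose in controls from 5 to 7.5 hpf in all 10 rows, against 5.9% of all genes tested called higher. The smallest adjusted p were those of bix1.3.S, mix1.L and bix1.3.L, with log2 fold changes of 6.91, 5.98 and 5.97, and the list's range was 3.71 to 9.14. The top of that range was mixer.S, listed at 0 in both 5 hpf libraries, so the added 1 weighs on its size. In CHX against control at 7.5 hpf all 10 estimates were negative (-2.51 to -0.84, median -1.72). Only mix1.L was called lower, against 0.355% of all genes tested. It had 725 and 546 in CHX embryos, against 3610 and 1697 in control embryos, a log2 fold change of -1.97 ± 0.32 (limma adjusted p = 0.025). Whether the sox17 response differs from that of the Mix and Bix genes was not tested.

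Genes known from endoderm or from the tissue that overlies it made up 33 rows, of which 15 were tested. In controls 10 were called higher at 7.5 than at 5 hpf, against 5.9% of all genes tested. Under CHX 11 were called higher than at 5 hpf, against 5.75%. Low rows that are high under CHX passed the filter more readily, which favours the count of 11. In CHX against control at 7.5 hpf 0 were called, against 0.198% of all genes called higher and 0.355% lower. The estimates of the 15 rows in that comparison lay on both sides of the control level (-3.77 to 4.83, median -0.48). The forkhead gene foxa4.L, of the dorsal midline, had 454 and 241 in CHX embryos, 1449 and 417 in controls at 7.5 hpf and 0 at 5 hpf, so the 7.5 hpf groups overlapped. Its S copy foxa4.S had a log2 fold change of -2.27 ± 0.73 against the 7.5 hpf controls (adjusted p = 0.38). The intestinal homeobox gene cdx2.L had 158 and 118 in CHX embryos, 7 and 8 in controls at 7.5 hpf and 6 and 0 at 5 hpf. The pancreatic factor gene ptf1a.L had 126 and 75 in CHX embryos, 11 and 0 in controls and 0 at 5 hpf. cdx2.L and ptf1a.L were chosen after their values were seen, and neither passed the test against the 7.5 hpf controls (adjusted p = 0.28 and 0.36).

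**Figure D4:**
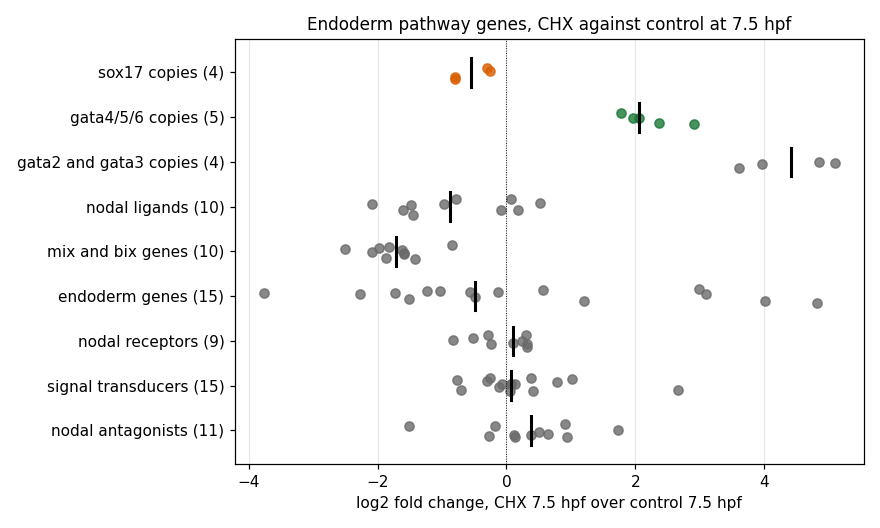
Log2 fold change of CHX over control embryos at 7.5 hpf for tested rows of the endoderm pathway; each point is a gene copy, the black bar is the median and the number of rows stands in brackets. The gata4/5/6 and gata2/3 rows lie to the right of 0, and the sox17 and the Mix and Bix rows to the left. The medians of receptors and transducers lie near 0, although the transducer row smad3.S lies at 2.66.

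By their profile over the 6 libraries, measured as the root mean square distance of centred log2 values among 15658 named genes, the nearest genes differed between the families. The nearest to sox17a.S were pou5f3.1.L (0.228), a pluripotency factor of the POU group, ugdhl.L (0.372) and adamts1.L (0.373). Near sox17b.1.L were kirrel2.L (0.116) and ptmap12.S (0.18). For gata4.S the nearest were the forkhead gene foxc1.L (0.167), the zinc-finger gene zeb2.L (0.446) and scube2.S (0.475). foxc1.L had 343 and 235 in CHX embryos, 55 and 62 in controls at 7.5 hpf and 0 at 5 hpf, close to gata4.S in every library. For gata5.L they were wnt5b.L (0.298), mrpl35.L (0.319) and tmem216.L (0.341), and for gata6.S trnay-gua (0.341), gask1b.L (0.457) and zic4.S (0.479). These likenesses describe 6 libraries in 3 groups and carry no test.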

How the data were processed

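EU-labelled RNA was sequenced from 6 libraries in 3 groups of 2. The authors used Salmon 0.12.0 for quantification and DESeq2 for normalization, per the submitters' processing notes. The deposited values were treated as a score: whole numbers that, from their spacing, are read numbers divided by a size factor and rounded. The build, the annotation and the strand setting were not found in the labels or file headers. Library totals and the estimated worth of 1 read (0.446 to 2.31) set the depth. Intervals cover the spread between these libraries of 1 clutch, which may be technical. No replicate pair was the same library, since 0.7% to 1.04% of tested genes had identical values above 0.

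Groups were fitted with limma 3.58.1 (R 4.3.3) on log2(value + 1) over all 6 libraries, with an intensity trend, 3 residual and 7.35 prior degrees of freedom, two-sided. Entries with a repeated name were kept as separate rows. The filter was 10 reads at the mean worth of 1 read. Homeolog ratios used pairs with unique names and both copies past the filter. Named genes are all rows found by the name rule, up to 3 called genes of each list by adjusted p, relatives, and the 3 nearest profiles, of which 1 is not reported here. Members and lists were chosen with earlier results of these data known. Alternatives were 2 pseudocounts, 2 filters, 3 scalings, the replicate number as a block, 2-group fits, library weights, leaving out each library, and summed copies (chosen after seeing the data). The fit was also run on simulated data, with changes placed only in genes of higher mean value. Its recovery of changes in low rows, such as the gata rows, was therefore not tested. Figures were made with matplotlib 3.10.9.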

Additional observations from a re-analysis of the deposited data

How the results depend on the processing

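Scaling to equal totals, recomputed median of ratios and trimmed means changed no call of a sox17 or gata row. Scaling to totals moved the median of all genes for 7.5 against 5 hpf in controls from 0.03 to -0.11 on the log2 scale. The count of rows called higher in CHX against control at 7.5 hpf was 0, beside 38 of 19149 genes. It was 1 (gata4.S) in a fit to these 2 groups alone, beside 72 genes. For CHX against 5 hpf it was 7, beside 1101 of 19149 genes. It fell without either CHX library, where far fewer of all genes were called too, and rose without either 7.5 hpf control. For controls at 7.5 against 5 hpf it was 7, beside 1129 of 19149 genes, and was lower in each fit without 1 library. It was 5 at a pseudocount of 5, with no filter and in the 2-group fit. Those fits called 1171 of 19149, 628 of 32268 and 598 of 19149 genes higher. Counts of rows called lower, and of pairs with a changed L to S ratio, were 0 in all fits.

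Estimates that turned sign were all uncalled. For CHX against control they ran, over the fits without 1 library, from -0.22 to 4.95 for gata6.L, from -0.86 to 0.27 for sox17b.1.L and from -0.98 to 0.47 for sox17b.1.S, the turned sign being without control 7.5 hpf replicate 1. For the L to S ratio in CHX against control the ranges were -0.21 to 0.11 for sox17b.1, -0.11 to 0.090 for sox17a and -1.01 to 2.16 for gata6, and gata6 was -0.29 at a pseudocount of 5. Against 5 hpf the sox17a ratio ran from -0.043 to 0.71 in controls and from -0.053 to 0.70 under CHX, negative without control 5 hpf replicate 1. The cause was not tested.

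The labels share replicate numbers, but deviations of same-numbered libraries correlated at only 0.13, -0.02 and 0.01 for the group pairs, so the numbers are not taken as pairs. With the replicate block 7, 0 and 7 rows were called higher in the 3 comparisons, as without it. At 5 hpf gata5.L rested on an estimated 7 and 8 reads and sox17a.L on 13 and 7, and gata4 and gata6 were at 0, so small differences from 5 hpf were not detectable at this depth.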
